A study of Mus musculus with 6 samples.

Results

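The genes described are 9 cytoplasmic tyrosine kinases: the Src-family genes *Lyn*, *Fgr*, *Src*, *Fyn* and *Yes1*, the Tec-family genes *Btk* and *Tec*, and the Abl-family genes *Abl1* and *Abl2*. They were chosen by gene symbol, and all 9 were found among the 24786 gene symbols with a value. Messenger RNA of Raw264.7 cells, a mouse macrophage line, was sequenced after lentiviral infection with a control shRNA (sh-NC) or one directed at the ETS transcription factor gene *Etv5* (sh-*Etv5*), in 3 libraries each. The labels describe the line as C57BL/6, raised from a tumor that Abelson murine leukemia virus had induced, and give a postnatal age of day 21. The paper names C57BL/6 as the strain of its mice and gives none for the line, which was purchased. The labels also place measurements at 24 or 48 h after infection, whereas the methods describe selection with puromycin. The paper reports that stably transfected cells were sequenced. The time of RNA harvest is not given in the sources used here. Both groups were infected with lentivirus, but with different shRNAs. A difference between the infected cells of the groups that arose otherwise cannot be told apart from an effect of the shRNA. The methods list several shRNAs, and which one was sequenced is not given in the sources used here. Whether replicate libraries stem from different infections is not stated either, so that p-values measure the spread between libraries, which may be technical.

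Src-family kinases sit at the inner face of the plasma membrane and phosphorylate the tails of Fc receptors, integrins and other receptors that signal through ITAM motifs. Syk binds to these motifs, and Tec-family kinases such as Btk then act on phospholipase C gamma. Abl kinases act mainly on adaptors that control the actin cytoskeleton. Lyn and Fgr are Src-family members of myeloid cells, and Lyn also phosphorylates inhibitory receptors and can dampen signaling. A Src-family kinase is held inactive when the kinase Csk phosphorylates a tyrosine near its C-terminus.

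The codon for that tyrosine is the last tyrosine codon of each coding sequence. The ends of the coding sequences are shown from 5 codons before it to the stop codon, because they show how alike the family members are and which of them share a tail. They were read from GENCODE release M21 transcripts (GRCm38), all lie within the last coding exon, and capitals mark the tyrosine codon.
Lyn (chr4:3789912-3789944, plus strand): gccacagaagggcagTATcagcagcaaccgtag
Lck (chr4:129548798-129548830, minus strand): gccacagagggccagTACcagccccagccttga
Fyn (chr10:39563934-39563972, plus strand): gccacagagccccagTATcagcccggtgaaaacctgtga
Fgr (chr4:133000305-133000343, plus strand): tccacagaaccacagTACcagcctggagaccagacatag
Src (chr2:157469923-157469961, plus strand): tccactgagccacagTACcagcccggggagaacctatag
Yes1 (chr5:32684721-32684759, plus strand): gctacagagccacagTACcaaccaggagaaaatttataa
In *Lyn* and *Lck* 4 codons separate the tyrosine codon from the stop codon, whereas in *Fyn*, *Fgr*, *Src* and *Yes1* 6 codons do. *Lck* is a further Src-family gene that is shown for comparison. Despite this likeness, 0% of the 50-base sequences in transcripts of any of the 9 genes or *Lck* occurred in a transcript of another of these kinases.

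The deposited unit was RPKM (mapped reads scaled by library total and by gene length), and levels were compared between genes on this scale. The gene lengths behind the values are not given in the sources used here, so that orders and shares between genes are approximate. Sums over all genes lay between 320462 and 340257 RPKM. The commonest ratio between low values of different libraries put the deepest library at 1.18 times the depth of the shallowest. Few low genes held that ratio, from 17 of 352 in sh-*Etv5* replicate 1 to 37 of 397 in sh-NC replicate 2, so that 1.18 is a rough figure. Absolute depth could not be read from the values, and no counting interval was computed. The targeted gene *Etv5* was at 9.18, 9.89 and 9.39 RPKM with sh-NC and at 5.19, 4.91 and 5.28 RPKM with sh-*Etv5* (log2 fold change -0.78, limma adjusted p = 2.74e-07). Of 9 macrophage markers, 8 passed the filter below, of which sh-*Etv5* cells had 4 at a higher and 4 at a lower level. *Mertk* did not exceed 0.0653 RPKM. The summed level of the macrophage list was 4460 to 4580 RPKM in sh-NC and 3550 to 3670 RPKM in sh-*Etv5* libraries. *Lyz2*, at 2830 ± 40.3 and 2040 ± 54.2 RPKM (SD, n = 3), made up most of this sum in both groups. Sums over 7 B cell markers stayed at or below 0.733 RPKM, those over 5 listed T cell markers at or below 0.181 RPKM and those over 5 fibroblast markers at or below 0.164 RPKM. *Pax5* and *Rag1* (B cell) and *Col1a2* (fibroblast) were listed at 0 in each library. The sum of 6 neutrophil markers went from between 0.123 and 0.491 RPKM to between 15.6 and 19.7 RPKM, nearly all of it from *S100a8*, while *Elane*, *Ly6g* and *S100a9* were listed at 0 in each library. The part of these shifts in the results below was not tested, and in such bulk samples fewer cells of a type cannot be told apart from less RNA per cell.

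In sh-*Etv5* cells the Src family moved in opposite directions, with *Lyn* and *Fyn* rising and *Fgr* falling, while *Btk* and *Tec* fell. The Abl genes were slightly lower, and *Src* and *Yes1* stayed below 1 RPKM in both groups. Expression was compared with limma on log2(RPKM + 1), on which a log2 fold change understates the change of low genes, for the 10738 genes that reached 1 RPKM in 3 or more libraries. A gene was called when its p-value, adjusted by the Benjamini-Hochberg method, was under 0.05. Of the 9 kinase genes 7 passed the filter, and 2 of these were called higher and 5 lower. This has to be read against the whole table, in which 74.3% of the tested genes were called, 33.3% as higher and 41.0% as lower. A log2 fold change of at least 1 in size was reached by 1 kinase gene, *Fgr*, which was lower. Of all tested genes 9.23% reached it, 6.23% as higher and 3% as lower. *Fgr* passed the filter through the sh-NC group only, in which it was high, so that nothing is read from its place in these counts. Of all tested genes, 398 passed through 1 group only. The median log2 fold change was -0.17 for the 7 kinase genes and -0.05 for all tested genes.

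**Figure D1:**
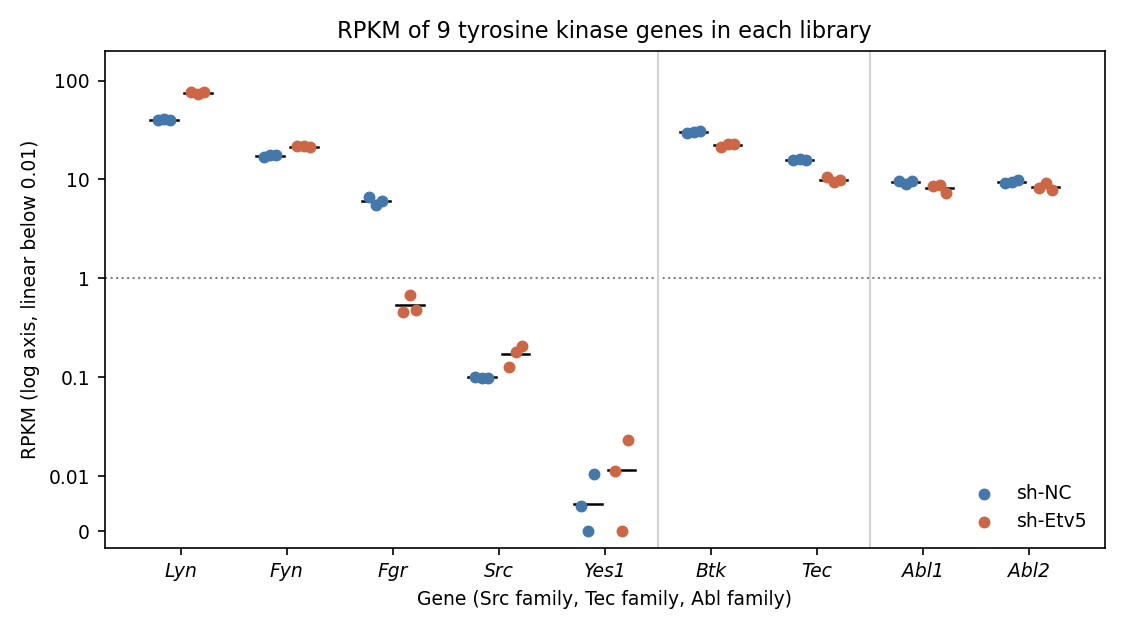
RPKM of the 9 kinase genes in each library, on an axis that is logarithmic above 0.01 RPKM and linear below it. Points are the 3 libraries of each group, short bars are group means and the dotted line marks 1 RPKM. *Lyn* and *Fyn* are higher and *Fgr*, *Btk* and *Tec* lower in all 3 sh-*Etv5* libraries, and *Src* and *Yes1* lie below 1 RPKM throughout.

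*Lyn* was the most abundant of the 9 kinase mRNAs in both groups. The gene lies on the plus strand of GRCm38 chromosome 4 from 3678115 to 3813122. It was at 39.7, 40.6 and 39.6 RPKM with sh-NC and at 76.2, 73.8 and 76.3 RPKM with sh-*Etv5*. Each sh-*Etv5* library was well above each sh-NC library, and the libraries of a group lay close together. Groups did not overlap for 76.4% of all tested genes. The mean rose by 88.7%, from 40.0 ± 0.512 to 75.4 ± 1.41 RPKM (SD, n = 3), which on the log2 scale was a difference of 0.90 (SE 0.0341, adjusted p = 1.38e-09 in limma). Of all tested genes, 11.6% had a larger change in size. Of the 50-base sequences in *Lyn* transcripts, 13.4% also occur in the pseudogene *Gm11787* and 4.92% in the opposite-strand transcript *Gm26857*, and the RPKM values do not tell these apart.

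*Fgr*, which encodes a Src-family kinase found mainly in myeloid cells, changed most of the 9 genes and in the direction opposite to *Lyn*. It lies on the plus strand of chromosome 4 from 132974095 to 133001910. It was at 6.66, 5.51 and 6.09 RPKM with sh-NC and at 0.453, 0.687 and 0.482 RPKM with sh-*Etv5*. Every sh-*Etv5* value was below 1 RPKM, so that *Fgr* passed the filter through the sh-NC group only. The mean decreased by 91.1%, from 6.09 ± 0.578 to 0.541 ± 0.127 RPKM (SD, n = 3), which is 11.3-fold lower. The log2 fold change was -2.20 (SE 0.0888, adjusted p = 2.29e-09 in limma), and 1.38% of all tested genes had a larger change in size. Since *Fgr* was tested through the group in which it was high, nothing is read from this rank. At such low values the fold change depends on the pseudocount, and it was -3.49 with a pseudocount of 0.01.

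*Fyn* (chromosome 10, 39368855 to 39565381, plus strand), a broadly expressed Src-family kinase, rose less than *Lyn*. It was at 16.7, 17.5 and 17.7 RPKM with sh-NC and at 21.6, 21.6 and 21.3 RPKM with sh-*Etv5*. The groups did not overlap, as was the case for 76.4% of all tested genes. The mean rose by 24.2%, from 17.3 ± 0.546 to 21.5 ± 0.164 RPKM (SD, n = 3), or 0.30 on the log2 scale (SE 0.0422, adjusted p = 6.76e-05 in limma). Changes larger in size were found for 52.0% of the tested genes.

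*Src* (chromosome 2, 157418444 to 157471862, plus strand) and *Yes1* (chromosome 5, 32611171 to 32687057, plus strand), broadly expressed members of the family, stayed below the filter. *Src* was at 0.101, 0.0995 and 0.0991 RPKM with sh-NC and at 0.127, 0.182 and 0.207 RPKM with sh-*Etv5*. Each sh-*Etv5* value was above each sh-NC value. When the filter was dropped, *Src* differed by 0.09 on the log2 scale (interval at 95% from 0.02 to 0.16) and was not called (limma adjusted p = 0.0692). *Yes1* was at 0.00459, 0 and 0.0105 RPKM with sh-NC and at 0.0114, 0 and 0.0233 RPKM with sh-*Etv5*. These values overlapped and were close to 0, so that a difference in *Yes1* was not detectable (log2 fold change 0.01, interval at 95% from -0.02 to 0.04, adjusted p = 0.649 in limma without the filter).

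Further Src-family and Tec-family genes were read from a list of 5. *Lck*, best known from T cells, was at 1.54, 1.07 and 1.48 RPKM with sh-NC and at 3.95, 3.97 and 4.03 RPKM with sh-*Etv5* (log2 fold change 1.08, limma adjusted p = 6.35e-07). The T cell genes *Cd3e*, *Cd3g* and *Cd3d* did not exceed 0.0999 RPKM in any library. *Txk*, a Tec relative, went from 0.752 ± 0.0647 to 1.27 ± 0.0804 RPKM (SD, n = 3) and passed the filter through the sh-*Etv5* group only (log2 fold change 0.37, limma adjusted p = 0.0016). *Blk* and *Frk* did not exceed 0.257 RPKM, and *Bmx* was listed at 0 in each library. Of these 5 genes, *Lck* and *Txk* were tested and both were called higher, but *Txk* entered the test through the group in which it was high, so that nothing is read from this count.

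**Figure D2:**
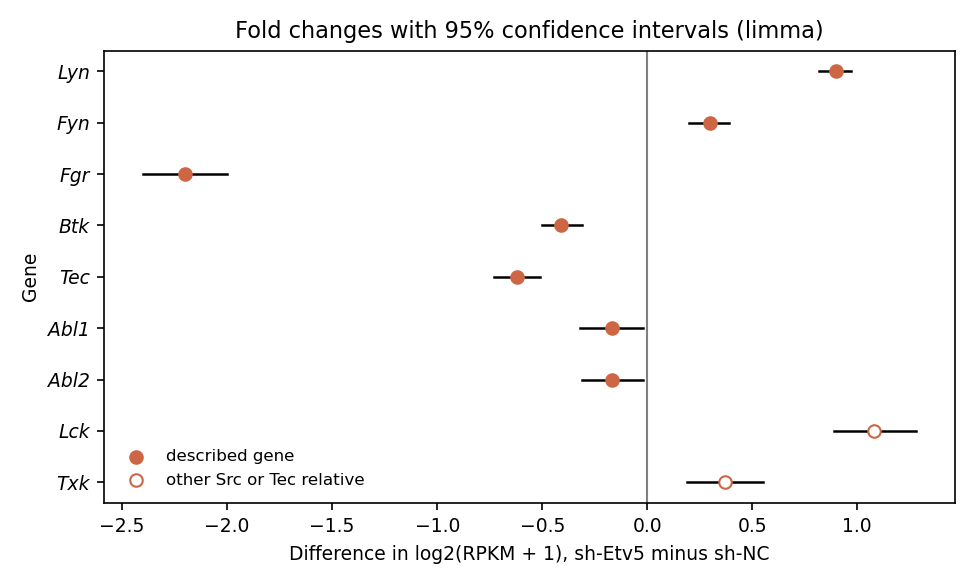
Difference in log2(RPKM + 1) between sh-*Etv5* and sh-NC cells, with 95% confidence intervals from limma (n = 3 libraries per group). Filled points are the 7 described genes that were tested and open points are tested relatives. *Lyn*, *Fyn*, *Lck* and *Txk* lie to the right of 0, *Fgr*, *Tec* and *Btk* to the left, and the intervals of *Abl1* and *Abl2* end close to 0.

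The summed RPKM of the 5 Src-family genes went from 63.2, 63.7 and 63.6 in sh-NC libraries to 98.3, 96.3 and 98.3 in sh-*Etv5* libraries. *Lyn* made up 63.0% ± 0.662 of this sum in sh-NC cells and 77.2% ± 0.516 in sh-*Etv5* cells (SD, n = 3). The share of *Fyn* went from 27.3% ± 0.759 to 22% ± 0.396, although its level rose, and that of *Fgr* from 9.59% ± 0.950 to 0.555% ± 0.138. These shares are of the 5 genes described, and other Src-family genes are not part of the sum, so that they are not shares of the whole family and would differ with other members counted.

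**Figure D3:**
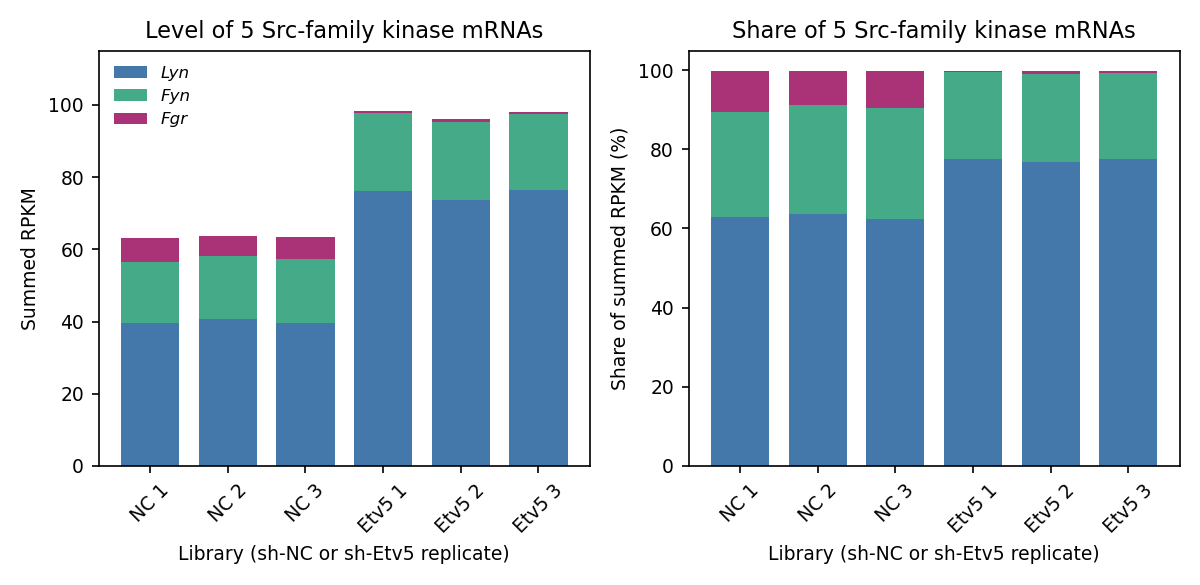
Summed RPKM (left) and share of the sum in percent (right) of *Lyn*, *Fyn* and *Fgr* in each library, where 100% is the sum over these genes, *Src* and *Yes1*, and the latter pair is too low to be drawn. In sh-*Etv5* libraries the sum is higher, the *Lyn* band is wider in level and share, and the *Fgr* band is nearly lost.

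Ratios within a library do not depend on its scaling. The log2 ratio of *Lyn* to *Fgr* was 2.58, 2.88 and 2.70 in sh-NC libraries and 7.39, 6.75 and 7.31 in sh-*Etv5* libraries. That of *Lyn* to *Fyn* was 1.25, 1.21 and 1.16 in sh-NC libraries and 1.82, 1.77 and 1.84 in sh-*Etv5* libraries. For both ratios the groups were apart, and the two-sided exact permutation p was 0.1, the smallest that 3 against 3 libraries allow (0.133 after Benjamini-Hochberg adjustment over 4 ratios).

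Both of the Tec-family genes described here fell, whereas *Txk*, a further gene of the family, was higher in sh-*Etv5* cells, as given above. *Btk* encodes the kinase that links activating receptors to phospholipase C gamma and calcium in B cells and macrophages, and its gene (chromosome X, minus strand) spans 134542336 to 134583570. It was at 29.4, 30.0 and 30.6 RPKM with sh-NC and at 21.4, 22.9 and 22.9 RPKM with sh-*Etv5*. The groups did not overlap, as was the case for 76.4% of all tested genes. The mean decreased by 25.4%, from 30.0 ± 0.641 to 22.4 ± 0.891 RPKM (SD, n = 3). On the log2 scale *Btk* differed by -0.41 (SE 0.0429, adjusted p = 5.98e-06 in limma). A larger change in size was found for 39.2% of all tested genes.

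*Tec*, after which the family is named, spans 72755716 to 72868483 on chromosome 5 (minus strand). It was at 15.9, 16 and 15.7 RPKM with sh-NC and at 10.5, 9.47 and 9.99 RPKM with sh-*Etv5*. The groups did not overlap here either, and 22.6% of all tested genes had a larger change in size. The mean decreased by 37.0%, from 15.9 ± 0.175 to 9.99 ± 0.527 RPKM (SD, n = 3), or -0.62 on the log2 scale (SE 0.0503, adjusted p = 6.86e-07 in limma). The log2 ratio of *Btk* to *Tec* was 0.88, 0.91 and 0.97 in sh-NC libraries and 1.02, 1.27 and 1.2 in sh-*Etv5* libraries, with an exact permutation p of 0.1 (adjusted p = 0.133). The groups were apart in this ratio too, with *Tec* lower relative to *Btk* in the sh-*Etv5* libraries. The sum of both genes went from 45.9 ± 0.517 to 32.4 ± 0.5 RPKM (SD, n = 3). Other Tec-family genes are not part of this sum.

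*Abl1* and *Abl2* encode kinases that bind actin and act on Crk adaptors. *Abl1* (chromosome 2, 31688376 to 31804227, plus strand) was at 9.63, 8.99 and 9.66 RPKM with sh-NC and at 8.64, 8.78 and 7.36 RPKM with sh-*Etv5*. The groups came within a small distance of each other but did not overlap, and the log2 fold change was -0.17 (interval at 95% from -0.32 to -0.02, adjusted p = 0.037 in limma). *Abl2* (chromosome 1, 156558786 to 156649568, plus strand) was at 9.19, 9.46 and 9.95 RPKM with sh-NC and at 8.14, 9.25 and 7.80 RPKM with sh-*Etv5*. Here sh-*Etv5* replicate 2 lay above the lowest sh-NC library, and the log2 fold change was -0.17 (interval at 95% from -0.31 to -0.02, adjusted p = 0.0381 in limma).

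The calls of both Abl genes were marginal and were lost when any of several single libraries was left out. Without sh-NC replicate 3 the limma adjusted p was 0.101 for *Abl1* and 0.125 for *Abl2*, and without sh-*Etv5* replicate 3 it was 0.129 and 0.123. The call of *Abl1* was also lost without sh-NC replicate 1 (0.0999), and that of *Abl2* without sh-NC replicate 2 (0.0723) or sh-*Etv5* replicate 1 (0.105). The log2 ratio of *Abl1* to *Abl2* lay between -0.08 and 0.08 in all 6 libraries, and its difference between the groups was -0.01 (exact permutation p = 0.8). Abelson virus carries an oncogene derived from mouse *Abl1*, and in values given per gene symbol, reads from such a copy cannot be told apart from those of the cellular gene.

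The order of the 9 levels was the same in both groups, from *Lyn* through *Btk*, *Fyn*, *Tec*, *Abl2*, *Abl1*, *Fgr* and *Src* to *Yes1*. In sh-NC cells *Abl2* and *Abl1* were the only neighbors in this order whose libraries overlapped. In sh-*Etv5* cells *Btk*, at 21.4 RPKM or more, and *Fyn*, at 21.6 RPKM or less, overlapped as well. *Btk* and *Fyn* were thus apart in sh-NC cells, with means of 30.0 and 17.3 RPKM. In sh-*Etv5* cells their means were 22.4 and 21.5 RPKM and did not differ beyond the spread between libraries.

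The knocked-down gene encodes an ETS factor, a class of proteins that bind DNA around the core GGAA. RefSeq promoter windows (GRCm38.p6, 250 bases before to 50 bases after a start) were found for 8 of the 9 kinase genes, all but *Lyn*. The 8-base sequences CCGGAAGT and GAGGAAGT, longer forms of the ETS core, were searched on both strands, and they occurred in 0 of the 8 genes' windows, against 3.89% and 3.20% of all 32851 windows. The core GGAA or its complement TTCC, which is part of both longer forms, was in windows of 7 of the 8 genes and in 96.0% of all windows. *Fyn* had 0 cores in its window, *Fgr* had 4, and *Btk* and *Tec* had 5 each, against a median of 3 over all windows. Of all windows, 46.3% had at least as many as *Fgr* and 28.6% at least as many as *Btk* or *Tec*. Whether cores go with the direction of change was not tested. The windows of the other 4 genes had between 1 and 6. Such matches describe letters and not binding. The 250 bases before the start are printed for *Fgr* and *Btk*, with GGAA or TTCC in capitals. Both genes fell, and neither of these stretches overlaps an annotated exon. The *Btk* stretch lies within the gene span given above, because the RefSeq start used is inside the GENCODE gene.
Fgr (chr4:132973845-132974094, plus strand): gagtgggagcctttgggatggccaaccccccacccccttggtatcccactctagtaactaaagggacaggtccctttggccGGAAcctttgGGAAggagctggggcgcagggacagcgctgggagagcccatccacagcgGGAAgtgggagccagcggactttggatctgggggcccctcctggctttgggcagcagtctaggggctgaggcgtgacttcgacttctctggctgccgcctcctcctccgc
Btk (chrX:134583141-134583390, minus strand): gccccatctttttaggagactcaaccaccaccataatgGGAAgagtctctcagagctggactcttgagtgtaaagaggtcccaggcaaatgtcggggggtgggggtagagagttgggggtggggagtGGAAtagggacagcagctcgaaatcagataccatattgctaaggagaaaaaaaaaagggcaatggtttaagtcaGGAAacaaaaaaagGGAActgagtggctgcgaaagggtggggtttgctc

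Kinases that work beside the Src, Tec and Abl families were read from the same fit. Of 14 other non-receptor tyrosine kinase genes 11 were tested, of which 6 were higher, 4 lower and 1 not called (median log2 fold change 0.15). These are 54.5% higher and 36.4% lower, against 33.3% and 41.0% of all tested genes. *Syk*, the kinase that acts directly after the Src family, was at 15.3, 15.0 and 14.4 RPKM with sh-NC and at 28.0, 30.3 and 28.4 RPKM with sh-*Etv5*. Its rise, at 0.91 on the log2 scale (limma adjusted p = 1.39e-08), was close in size to that of *Lyn*. *Tnk1* rose from 1.64 ± 0.142 to 4.93 ± 0.257 RPKM (SD, n = 3). *Jak3*, a cytokine receptor kinase, rose from 6.48 ± 0.215 to 10.2 ± 0.600 RPKM (SD, n = 3).

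A further list held 17 kinases, phosphatases and ubiquitin ligases that regulate Src and Abl kinases. Of its 15 tested genes 7 were higher, 7 lower and 1 not called, with a median log2 fold change of 0.06. Each direction thus held 46.7% of the tested genes, against 33.3% higher and 41.0% lower over the whole table. *Ptpn12*, a phosphatase of adaptors of the actin cytoskeleton, rose from 8.35 ± 0.560 to 19.4 ± 0.472 RPKM (SD, n = 3). *Ptpn22*, a phosphatase that acts on Src-family kinases, rose from 16.9 ± 0.442 to 31.8 ± 1.25 RPKM (SD, n = 3). *Cbl*, a ubiquitin ligase for activated tyrosine kinases, fell from 18.5 ± 0.724 to 11.0 ± 1.99 RPKM (SD, n = 3), or by -0.71 on the log2 scale (limma adjusted p = 4.19e-05). *Csk* and *Ptpra*, the kinase and a phosphatase of the tail tyrosine shown above, were named after their values were seen. *Csk* was at 85.9, 85.2 and 90.1 RPKM with sh-NC and at 68.9, 67.8 and 69.2 RPKM with sh-*Etv5* (log2 fold change -0.34, limma adjusted p = 4.69e-06). *Ptpra* fell from 80.8 ± 1.88 to 50.5 ± 0.735 RPKM (SD, n = 3). The other *Ptpr* genes of the list, likewise named after their values were seen, did not fall. *Ptprc* was at 35.2 ± 0.534 and 36.8 ± 2.16 RPKM (SD, n = 3) and was not called (limma adjusted p = 0.27). *Ptpre* and *Ptprj* were called higher, by 0.34 and 0.57 on the log2 scale.

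Of 16 membrane receptor genes that signal through these kinases 15 were tested, and 5 were higher, 8 lower and 2 not called (median log2 fold change -0.17). The share called higher, 33.3%, was that of all tested genes, and the share called lower was 53.3% against 41.0%. Of these 15 genes, 4 passed the filter through 1 group only, so that no result is drawn from these shares. The Fc receptor gene *Fcgr4* was at 0.385, 0.424 and 0.626 RPKM with sh-NC and at 10.8, 9.80 and 10.4 RPKM with sh-*Etv5*, a log2 fold change of 2.94. *Itgam*, the integrin subunit of complement receptor 3, rose from 33.8 ± 0.746 to 127 ± 7.21 RPKM (SD, n = 3). The scavenger receptor gene *Cd36* went from 0.359 ± 0.0464 to 16.6 ± 0.316 RPKM (SD, n = 3), the largest log2 fold change of the list, 3.70. *Fcgr4* and *Cd36* were below 1 RPKM in every sh-NC library. Both passed the filter through the sh-*Etv5* group only, in which they were high, so that nothing is read from their rank in the list.

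Adaptors and substrates were tested for 34 of 39 genes, and 12 were higher, 17 lower and 5 not called (median log2 fold change -0.13). With 35.3% higher and 50% lower, these shares were close to the 33.3% and 41.0% of all tested genes. *Blnk*, the adaptor that brings Btk and phospholipase C gamma together, was at 22.5, 21.6 and 22.8 RPKM with sh-NC and at 6.24, 6.78 and 8.12 RPKM with sh-*Etv5*. It fell by 1.54 on the log2 scale (limma adjusted p = 1.08e-08), more than any other tested gene of this list. *Pik3ap1*, an adaptor for phosphoinositide 3-kinase, rose from 28.0 ± 1.04 to 78.3 ± 7.96 RPKM (SD, n = 3). *Fyb*, an adaptor that Fyn phosphorylates, rose from 16.5 ± 0.386 to 38.1 ± 0.506 RPKM (SD, n = 3). Each of these lists thus held genes called in both directions, and none of the lists was tested as a set.

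**Figure D4:**
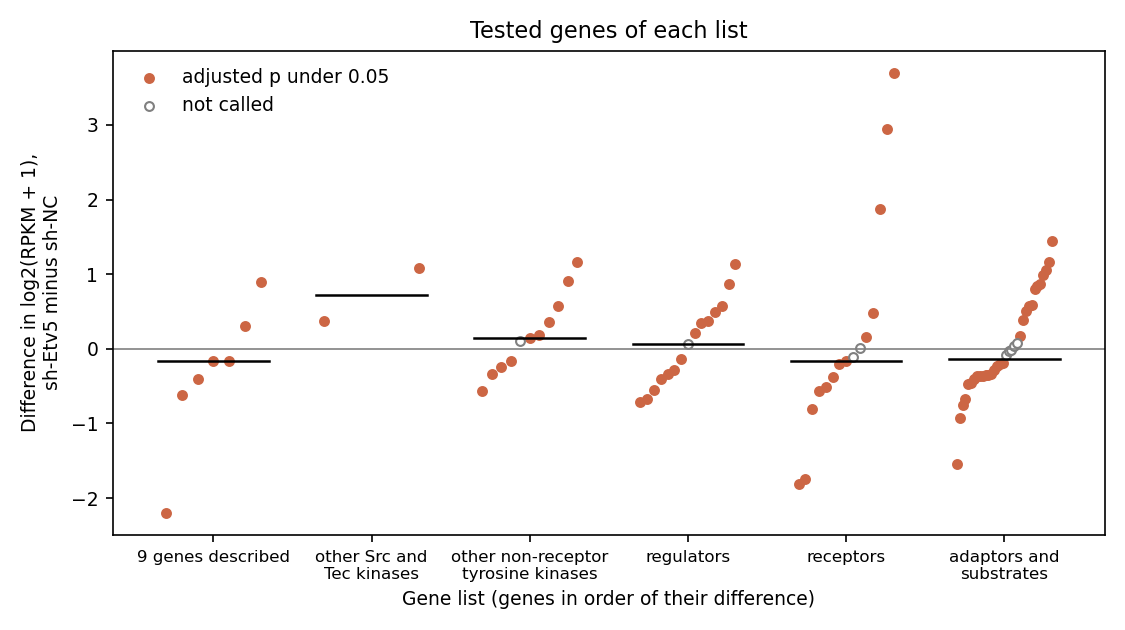
Difference in log2(RPKM + 1) between sh-*Etv5* and sh-NC cells for each tested gene of the lists, ordered within a list. Filled points had a limma adjusted p under 0.05, open points did not, and bars are medians. The list of other Src and Tec kinases, with 2 tested genes, lies above 0, and the other lists spread to both sides of it.

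The genes whose log2(RPKM + 1) followed *Lyn* most closely over the 6 libraries were *Lrrfip2* (Pearson r = 0.99994), *Pilrb2* and *Agpat4*. Those closest to *Fgr* were *Fam168b* (Pearson r = 0.99974), *Rab11b* and *Cdc20*. Since the libraries form 2 groups, such values are common, and 983 tested genes had an r above 0.99 with *Lyn* and 858 with *Fgr*.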

How the data were processed

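RNA of 6 libraries was sequenced after TruSeq preparation. Per the labels the genome build was mm10, and the authors deposited RPKM values taken from coverage tracks, 1 per gene symbol and library, untransformed. The aligner, annotation and use of strand are not given in the sources used here, so that reads of overlapping genes may count for each. Groups and replicate numbers came from the sample titles. Log2(RPKM + 1) was fitted in R 4.3.3 with limma 3.58.1 (moderated by eBayes with an intensity trend, two-sided, no covariate), as limma was the package of the study. A test on simulated data with known changes preceded this fit. Ratios were compared by exact permutation. Coordinates, coding sequences and shared 50-base sequences came from GENCODE release M21 (GRCm38) and promoter windows from RefSeq, read with Python 3.11.15 and pandas 2.3.3. Protein sequences were not used here, and some related genes are not reported here.

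The 9 genes and all lists were chosen with earlier results of these data known. Named were the 9 genes, *Etv5*, other Src and Tec kinases, the 3 called genes with the largest change of each further list, the 3 genes closest to *Lyn* and *Fgr*, and markers at 0 in each library. *Mertk*, *Lyz2*, *S100a8*, *Cd3e*, *Cd3g* and *Cd3d* were named after their values were seen. So were *Csk*, *Ptpra*, *Ptprc*, *Ptpre*, *Ptprj* and the adaptors and receptors of the closing observations. Alternatives were other pseudocounts, filters, scalings, variance model, threshold, the replicate block and each library left out.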

Additional observations from a re-analysis of the deposited data

How the results depend on the processing

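*Lyn*, *Fyn*, *Fgr*, *Btk*, *Tec* and *Etv5* kept their direction and their call under every alternative that could be run. Under a minimum mean of 5 RPKM, *Fgr*, *Lck* and *Txk* were not tested, so that 0 genes of the other Src and Tec kinases were called there. The log2 fold change ranged from 0.84 to 0.94 for *Lyn*, from 0.24 to 0.33 for *Fyn*, from -3.49 to -2.14 for *Fgr*, from -0.47 to -0.36 for *Btk* and from -0.68 to -0.58 for *Tec*. *Abl1* and *Abl2*, both at -0.17, were not called without a filter (limma adjusted p = 0.175 and 0.163) or at a threshold of 0.01 (0.037 and 0.0381), so that 3 of the kinase genes were lower there. With the replicate number as a block, they were at -0.17 with limma adjusted p = 0.0522 and 0.0501, and 3 kinase genes were lower. Deviations of same-numbered libraries correlated at 0.0739, -0.071 and -0.0352, and the numbers were not taken to pair the libraries. With each library left out, *Abl1* ranged from -0.22 to -0.10, *Abl2* from -0.23 to -0.12 and the count of lower kinase genes from 3 to 5. Rescaling to the same RPKM sum moved the median of all genes from -0.049 to -0.103. The absolute depth behind low values such as those of *Src* and *Yes1* is unknown.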

Other observations

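Related adaptors did not always move together, which was looked at after the values were seen. *Pstpip1*, which binds the Wiskott-Aldrich protein, rose from 32.8 ± 0.836 to 58.0 ± 3.49 RPKM (SD, n = 3), whereas its relative *Pstpip2* fell from 17.4 ± 0.809 to 8.66 ± 0.562 RPKM. *Abi1*, a part of the WAVE complex that drives actin assembly, rose from 18.6 ± 0.801 to 28.0 ± 1.27 RPKM. *Abi2* fell from 6.75 ± 0.518 to 4.58 ± 0.299 RPKM, and *Abi3* fell from 5.76 ± 0.403 to 3.91 ± 0.279 RPKM. The limma adjusted p-values of *Abi1*, *Abi2* and *Abi3* were 1e-06, 8.75e-05 and 0.000124. Both Crk adaptors, the best known substrates of the Abl kinases, fell, *Crk* by 0.36 and *Crkl* by 0.37 on the log2 scale (limma adjusted p = 4.61e-05 and 3.32e-05). Among the guanine nucleotide exchange factors, *Vav1* rose from 29.8 ± 1.67 to 45.4 ± 0.632 RPKM and *Vav2* from 1.99 ± 0.202 to 2.90 ± 0.321 RPKM, while *Vav3* was at 7.09 ± 0.130 and 6.70 ± 0.823 RPKM (limma adjusted p = 0.369). *Trem2* and *Clec7a*, receptors that signal through Syk, were likewise named after their values were seen. *Trem2* fell from 169 ± 4.71 to 49.6 ± 2.4 RPKM, or by 1.75 on the log2 scale. *Clec7a* fell from 3.76 ± 0.699 to 0.347 ± 0.0782 RPKM, by 1.81 in log2(RPKM + 1), which understates the change of low genes. *Clec7a* passed the filter through the sh-NC group only, in which it was high.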
